A study of Mus musculus with 8 samples.

Results

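Dual-alpha T cells are taken here as cell barcodes with exactly 2 productive T cell receptor alpha (TRA) chains and exactly 1 productive beta (TRB) chain. They were picked from the assembled receptor contigs of 4 libraries, and 436 barcodes met the rule, of 6686 barcodes with a productive chain. They were set against 4589 barcodes with 1 TRA and 1 TRB, called 1-alpha cells. The libraries came from C57BL/6 mice, whose CD45+ (leukocyte) cells were sorted out of brain parenchyma. One pair of libraries is from 5xFAD;Cxcr6-/- mice, which carry the 5xFAD transgenes and lack the chemokine receptor Cxcr6, and the other pair is from 5xFAD mice with no Cxcr6 deletion in their label. 5xFAD is a transgenic mouse model of brain amyloid deposition, with transgenes expressed from a neuronal promoter. Both groups carry it, so no comparison with mice free of amyloid was made. The labels give neither age nor sex, and do not say whether a library is 1 mouse or a pool, so p-values measure only the spread between libraries, which may be technical.

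The alpha locus differs from the beta locus in that both of its alleles rearrange, and allelic exclusion is loose, so a T cell can carry a productive alpha on each chromosome. Recombination begins by joining a V segment to a J segment at the 5′ end of the J array and can then be repeated, each round using a J segment further towards the 3′ end. TRAJ numbers count down in that direction, so a high number marks an early position and a low number a late one. On GRCm38 the mouse array used here runs from TRAJ58 (chr14:54157280-54157342) to TRAJ2 (chr14:54217836-54217901), all on the plus strand. The values below bear on whether the 2 alphas of a cell use nearby J segments, and whether such cells differ from 1-alpha cells in clone size, in receptor RNA or in the share that carries TRAV11 joined to TRAJ18. That joint is the invariant alpha of natural killer T (iNKT) cells, which recognise lipids on CD1d.

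The CDR3 is the stretch of the chain made by the joint itself. The pairs below belong to the clonotypes with the most dual-alpha cells of a library (a clonotype is the group of barcodes to which the depositors' pipeline gave the same receptor identifier), and were chosen because they span the range from the same TRAJ segment to the far ends of the array. Capitals mark the longest 3′ part of the CDR3 that is found unchanged in the germline TRAJ segment of the GENCODE annotation (GRCm38).
5xFAD;Cxcr6-/- library 1, TRAV2-TRAJ22: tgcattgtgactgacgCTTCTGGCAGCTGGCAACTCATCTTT
5xFAD;Cxcr6-/- library 1, TRAV13N-1-TRAJ22: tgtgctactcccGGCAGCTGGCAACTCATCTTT
5xFAD;Cxcr6-/- library 2, TRAV21-DV12-TRAJ21: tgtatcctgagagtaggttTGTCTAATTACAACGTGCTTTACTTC
5xFAD;Cxcr6-/- library 2, TRAV7-1-TRAJ22: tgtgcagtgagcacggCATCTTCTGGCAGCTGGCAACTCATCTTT
5xFAD;Cxcr6-/- library 2, TRAV6N-7-TRAJ49: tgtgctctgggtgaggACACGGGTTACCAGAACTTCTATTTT
5xFAD;Cxcr6-/- library 2, TRAV12D-2-TRAJ2: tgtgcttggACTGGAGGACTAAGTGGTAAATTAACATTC
5xFAD library 1, TRAV6N-7-TRAJ7: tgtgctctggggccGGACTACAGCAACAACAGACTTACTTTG
5xFAD library 1, TRAV12D-2-TRAJ27: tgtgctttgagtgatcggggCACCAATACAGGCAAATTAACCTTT
5xFAD library 2, TRAV7-6-TRAJ49: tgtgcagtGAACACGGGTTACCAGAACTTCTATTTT
5xFAD library 2, TRAV5-4-TRAJ48: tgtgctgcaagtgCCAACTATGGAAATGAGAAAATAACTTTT
5xFAD library 2, TRAV7-5-TRAJ12: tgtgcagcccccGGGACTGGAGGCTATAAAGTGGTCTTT
5xFAD library 2, TRAV12D-2-TRAJ12: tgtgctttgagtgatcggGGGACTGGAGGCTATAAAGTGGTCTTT
In the TRAJ22 and TRAJ12 pairs the capitals end alike while the lower-case parts, from the V segment and the junction, differ.

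Depth and overlap between libraries were as follows. Library totals ranged from 13460 to 34772 UMIs (unique molecular identifiers, each standing for 1 captured transcript) over the deposited chains, and the 5xFAD;Cxcr6-/- libraries held fewer cells than the 5xFAD libraries. Cells with 1 TRB and 1 or 2 TRA numbered 567 and 1046 in the 5xFAD;Cxcr6-/- libraries, against 1527 and 1885 in the 5xFAD libraries. A further 1198 barcodes had a TRB without TRA, 177 had a TRA without TRB, 286 had 2 TRB, and none had 3 chains of a locus. Between libraries 28 barcodes were shared, none of them with a receptor chain in common, and 4 of them were a dual-alpha cell in a library. Gene expression of these cells was not analysed here, so their T cell identity rests on the receptor chains alone, and whether some barcodes hold 2 cells was not tested.

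The share of dual-alpha cells overlapped between the genotypes as deposited. They were 65 of 567 cells (11.5%, exact 95% binomial interval 8.96 to 14.4) and 85 of 1046 cells (8.13%, interval 6.54 to 9.95) in the 5xFAD;Cxcr6-/- libraries, against 119 of 1527 cells (7.79%, interval 6.5 to 9.25) and 167 of 1885 cells (8.86%, interval 7.61 to 10.2) in the 5xFAD libraries. Intervals cover counting error only. The first 5xFAD;Cxcr6-/- library stood highest and the groups overlapped. Means were 9.80 ± 2.36% in 5xFAD;Cxcr6-/- and 8.33 ± 0.754% in 5xFAD libraries (SD, n = 2 each), a difference of 1.47 percentage points (exact two-sided permutation test, p = 0.667; the smallest p that 2 against 2 libraries allow is 0.333). Counted as clonotypes in place of cells, the shares were 10.8% and 9.24% in 5xFAD;Cxcr6-/- libraries and 10.9% and 10.1% in 5xFAD libraries, which turned the difference to -0.472 percentage points. Without the first 5xFAD;Cxcr6-/- library the difference was -0.200 percentage points. With at least 3 UMIs asked of every chain the groups did not overlap, at 10.5% and 8.01% in 5xFAD;Cxcr6-/- libraries and 6.60% and 7.85% in 5xFAD libraries, a difference of 2.04 percentage points (exact two-sided permutation test, p = 0.333, the smallest possible). Mean TRA UMIs per 1-alpha cell were higher in both 5xFAD;Cxcr6-/- libraries (5.04 and 5.00) than in both 5xFAD libraries (4.15 and 4.22). The part that this depth difference has in the shares under a UMI threshold was not tested.

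Because a cell with few TRA transcripts can lose its second alpha, each cell was also reduced to 4 TRA UMIs, leaving out 20 dual-alpha and 2087 1-alpha cells with fewer. The expected share with both alphas seen was then 15.3% and 12% in 5xFAD;Cxcr6-/- libraries and 11.7% and 13.5% in 5xFAD libraries. These shares are higher than the unthinned ones because mostly 1-alpha cells were left out. The dual-alpha share had no steady order over the number of TRB UMIs, which the rule does not use. Over all libraries it was 7.81% of cells with 1 to 4 TRB UMIs, 8.73% with 5 to 9, 10.2% with 10 to 14 and 7.66% with 15 or more. Among cells with 2 TRB, which are not members, 73 of 286 (25.5%, interval 20.6 to 31.0) also had 2 alphas, a share that was 6 of 61 and 13 of 55 in 5xFAD;Cxcr6-/- libraries and 26 of 82 and 28 of 88 in 5xFAD libraries. The part that barcodes holding 2 cells have in either share was not tested.

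**Figure D1:**
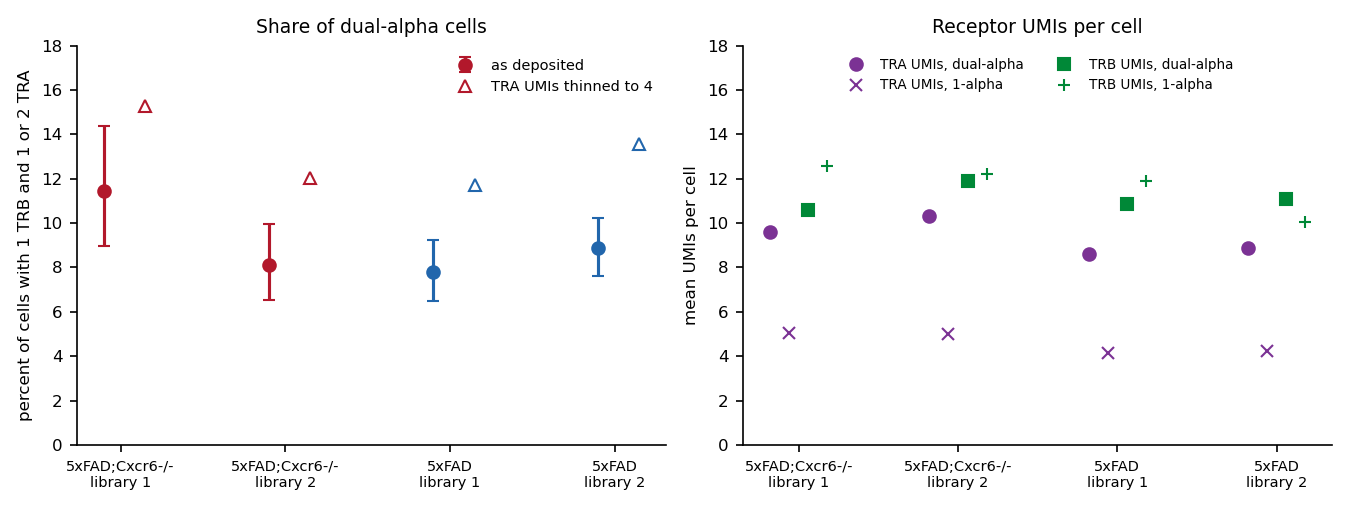
Left, percent of dual-alpha cells among cells with 1 TRB and 1 or 2 TRA in each library, as deposited (circles, exact 95% binomial interval) and with TRA UMIs thinned to 4 (triangles). Right, mean TRA UMIs (both alphas summed) and TRB UMIs per cell in dual-alpha and 1-alpha cells of each library: TRA means of dual-alpha cells lie between 8.62 and 10.3, those of 1-alpha cells between 4.15 and 5.04.

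Dual-alpha cells held more TRA transcripts than 1-alpha cells in every library, while the TRB ratio lay within its spread over libraries. Mean TRA UMIs per dual-alpha cell, both alphas summed, were 9.58, 10.3, 8.62 and 8.87 in 5xFAD;Cxcr6-/- libraries 1 and 2 and 5xFAD libraries 1 and 2, against 5.04, 5.00, 4.15 and 4.22 per 1-alpha cell in the same order. The log2 ratio averaged 1.02 ± 0.0654 (SD, n = 4 libraries) and was above 0 in 4 of 4 libraries. A second chain is part of the rule, so this is a description with no test. Mean TRB UMIs were 10.6, 11.9, 10.9 and 11.1 per dual-alpha cell, against 12.6, 12.2, 11.9 and 10.0 per 1-alpha cell, a log2 ratio of -0.0672 ± 0.166 (exact two-sided sign-flip permutation test, p = 0.5; lower in 3 of 4 libraries). Taken as medians, that TRB ratio was 0.03 on the log2 scale.

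Among cells with both alphas detected, which the rule requires, the 2 were seen at comparable levels. Cells whose second alpha was missed count as 1-alpha cells and are not in these values. The alpha with more UMIs had a median of 5, 6, 5 and 6 UMIs per cell in the same order of libraries and the other alpha a median of 3 in each, against a median of 4 for the single alpha of 1-alpha cells. The lesser alpha made up a median of 42.9% and 40% of a cell's TRA UMIs in 5xFAD;Cxcr6-/- libraries, against 40% and 38.5% in 5xFAD libraries. Means of these medians were 41.4 ± 2.02% in 5xFAD;Cxcr6-/- and 39.2 ± 1.09% in 5xFAD libraries (SD, n = 2 each; exact two-sided permutation test, p = 0.667). The second 5xFAD;Cxcr6-/- and the first 5xFAD library were tied. By reads, by pooled UMIs, by clonotype means and in cells with 10 or more TRA UMIs, both 5xFAD;Cxcr6-/- libraries stood above both 5xFAD libraries, by 1.18, 1.75, 2.70 and 2.36 percentage points (exact two-sided permutation test, p = 0.333 for each, the smallest possible). Without 1 library the difference of medians was 0.769 (first 5xFAD;Cxcr6-/-), 3.63 (second 5xFAD;Cxcr6-/-), 2.97 (first 5xFAD) or 1.43 (second 5xFAD) percentage points. Both alphas had equal UMIs in 84 of 436 cells (19.3%). A lesser alpha with a single UMI, the weakest evidence for a second chain, was found in 2 of 65 and 3 of 85 cells in 5xFAD;Cxcr6-/- libraries, against 10 of 119 and 12 of 167 cells in 5xFAD libraries.

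**Figure D2:**
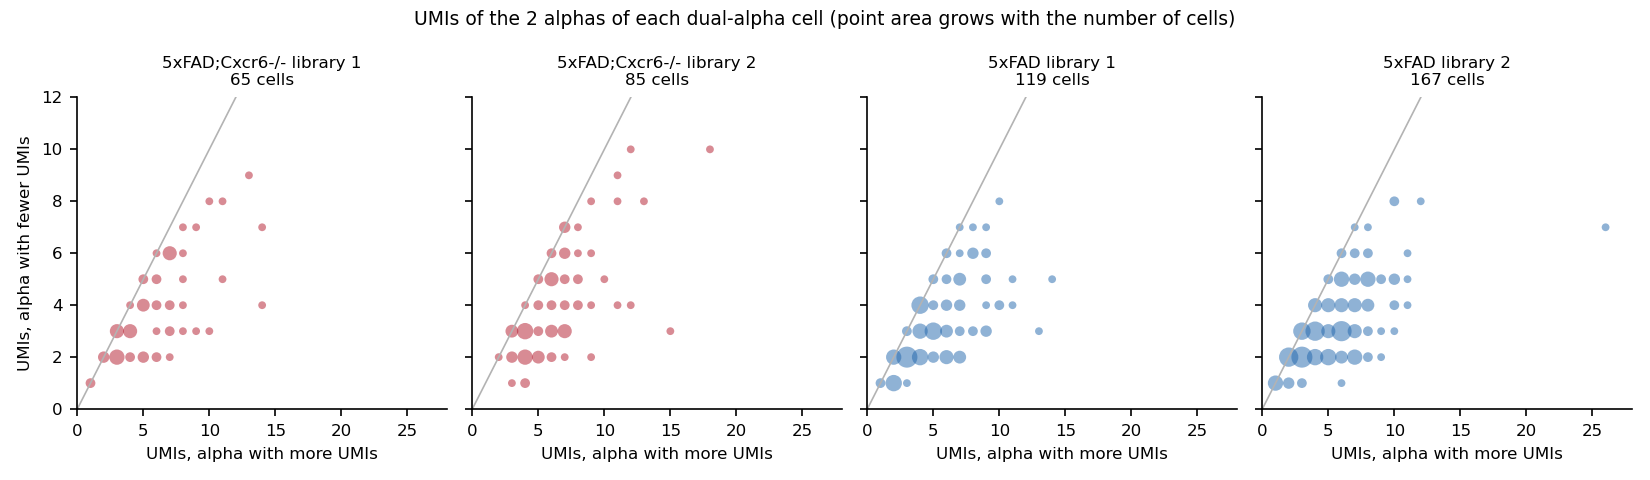
UMIs of the alpha with more UMIs (horizontal axis) and of the other alpha (vertical axis) in each dual-alpha cell of the 4 libraries; a point's area grows with the number of cells at that position and the line marks equal UMIs. The median is 5 or 6 UMIs for the leading alpha and 3 for the other, which reaches 10 UMIs at most.

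The 2 alphas of a clonotype used TRAJ segments that lay closer together than those of different clonotypes. To keep a large clone from counting more than a small one, each clonotype entered once, which gave 49 and 77 dual-alpha clonotypes in 5xFAD;Cxcr6-/- libraries and 104 and 116 in 5xFAD libraries. Among the 49, 2 clonotypes hold the same alpha pair and TRB CDR3 under separate identifiers, so that pair entered more than once. The mean difference of TRAJ numbers within a clonotype was 9.51, 8.31, 9.54 and 8.16 in 5xFAD;Cxcr6-/- libraries 1 and 2 and 5xFAD libraries 1 and 2. Over all pairs of 1 alpha from each of 2 dual-alpha clonotypes of the same library it was 15.1, 14.7, 15.6 and 14.9. Every library showed the smaller value within clonotypes, and the 2 sets of values did not overlap. Means over libraries were 8.88 ± 0.745 within and 15.1 ± 0.354 between clonotypes (SD, n = 4 libraries), a difference of -6.19 ± 0.510 segment numbers (exact two-sided sign-flip permutation test, p = 0.125, the smallest that 4 libraries allow).

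The difference lay at both ends of the distribution. TRAJ numbers over 20 apart were found in 3 of 49, 2 of 77, 8 of 104 and 7 of 116 clonotypes, which is 6.12%, 2.60%, 7.69% and 6.03%, against 28.9%, 26.9%, 30.3% and 28.2% of pairs between clonotypes. Differences of at most 10 were found in 61.2%, 72.7%, 64.4% and 71.6% of clonotypes, against 40.8%, 43.1%, 40.7% and 41.8% of pairs between clonotypes. Pearson's r of the TRAJ numbers of the 2 alphas, entered in both orders, was 0.56, 0.63, 0.58 and 0.64 over these clonotypes. It is given as a description, since clonotypes of a library share that library. On the genome the same comparison gave mean distances of 9.95, 8.67, 9.81 and 8.45 kb within clonotypes, against 15.7, 15.5, 16.2 and 15.4 kb between them.

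**Figure D3:**
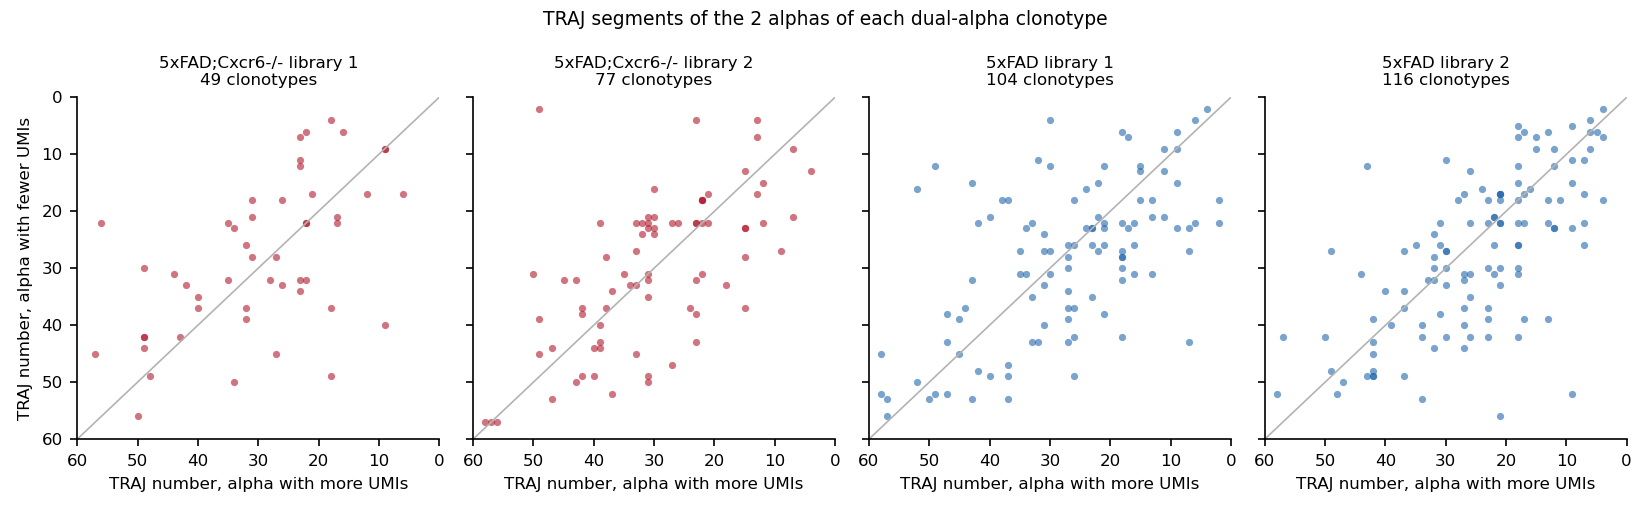
TRAJ number of the alpha with more UMIs (horizontal axis) and of the other alpha (vertical axis), 1 point per dual-alpha clonotype, in the 4 libraries. Axes run from high numbers (5′ end of the J array) to low numbers (3′ end), and the line marks the same TRAJ in both alphas. Points scatter around it, with r between 0.56 and 0.64 and a median difference of 6 to 8 segment numbers.

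**Figure D4:**
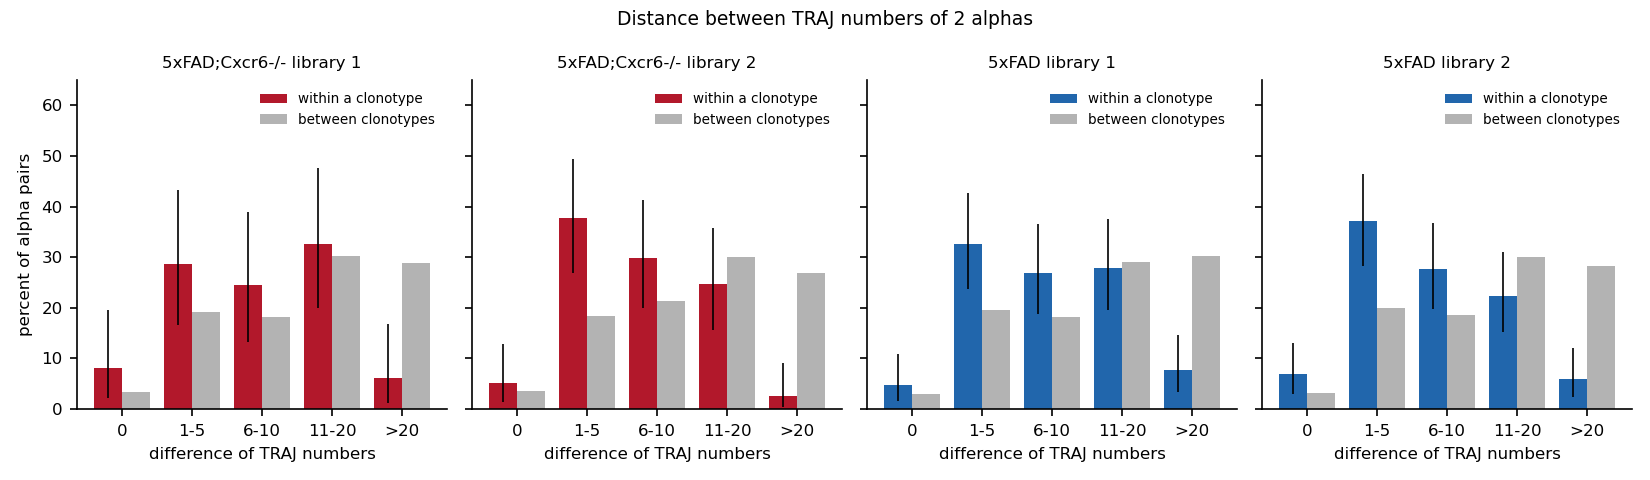
Percent of alpha pairs by the difference of their TRAJ numbers, within dual-alpha clonotypes (colour, exact 95% binomial interval) and over all pairs between clonotypes of the library (grey). Differences over 20 make up 2.60 to 7.69% within clonotypes and 26.9 to 30.3% between them.

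Split into the 5′ (TRAJ58 to TRAJ40), middle (TRAJ39 to TRAJ21) and 3′ (TRAJ20 to TRAJ2) parts of the array, both alphas fell in the same part in 206 of 346 clonotypes (59.5%, interval 54.2 to 64.8), against 37.8% of pairs between clonotypes. The middle part held both alphas of 110 clonotypes, the 3′ part those of 54 and the 5′ part those of 42. A 5′ alpha met a 3′ alpha in 11 clonotypes, and neighbouring parts met in 54 (5′ with middle) and 75 (middle with 3′). These counts also depend on how many chains each part holds. The matching counts for pairs between clonotypes were not computed. The dual-alpha chains as a group were spread over all parts of the array, as were those of 1-alpha clonotypes. The 5′, middle and 3′ parts held 21.5%, 50.4% and 28% of dual-alpha chains, against 24.8%, 43.3% and 31.9% of 1-alpha clonotypes. These shares include TRAV11-TRAJ18. TRAJ18, in the 3′ part, averaged 5.55% of dual-alpha and 12.4% of 1-alpha chains over libraries, and the spread without TRAV11-TRAJ18 was not computed. The alpha with more UMIs was the one with the higher TRAJ number in 154 clonotypes and the one with the lower number in 171.

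All 43 TRAJ segments seen in the files occurred in dual-alpha cells. The same TRAJ in both alphas was found in 4, 4, 5 and 8 clonotypes, where 2 of those in the first 5xFAD;Cxcr6-/- library hold the same pair and TRB CDR3. None of these 21 also had the same TRAV in both alphas, and their CDR3 nucleotides differed by 3 to 16 edits. The pair 3 edits apart, in the second 5xFAD;Cxcr6-/- library, was TRAV12D-2-TRAJ57 (4 UMIs) with TRAV12D-3-TRAJ57 (2 UMIs), and whether such a pair is 1 chain read as 2 was not tested. No dual-alpha cell had identical CDR3 nucleotides in its 2 alphas. Leaving the same-TRAJ clonotypes out, mean distances were 10.4, 8.77, 10.0 and 8.77 within clonotypes and 15.6, 15.3, 16.0 and 15.4 between them.

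The V segments of the 2 alphas were also closer together within a clonotype, with a weaker correlation than that of the TRAJ numbers. The median distance between TRAV starts on GRCm38 chromosome 14 was 246, 229, 342 and 270.0 kb within clonotypes, against 376, 373, 368 and 357 kb between clonotypes. Pearson's r of the 2 TRAV positions was 0.39, 0.26, 0.11 and 0.30, lowest in the first 5xFAD library. Along 1 chain, outside TRAV11-TRAJ18, the TRAV position and the TRAJ number were correlated in dual-alpha chains (r = 0.45 over 672 chains) and in 1-alpha clonotypes (r = 0.42 over 2734 chains): V segments near the J array went with J segments of high number. Much of the mouse TRAV cluster exists in near-identical duplicated copies, marked D or N, so a V position is less certain than a TRAJ number. The 2 alphas shared a TRAV in 7 clonotypes and a TRAV family in 33.

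No difference between genotypes was detectable in this distance. Mean TRAJ distances within clonotypes were 8.91 ± 0.847 in 5xFAD;Cxcr6-/- and 8.85 ± 0.972 in 5xFAD libraries (SD, n = 2 each), a difference of 0.0598 segment numbers (exact two-sided permutation test, p = 1). The difference was smaller than the gap between libraries of a genotype, and its sign changed under 5 of the alternatives tried. In clonotypes with 2 or more dual-alpha cells, of which there were 7 and 6 in 5xFAD;Cxcr6-/- and 9 and 23 in 5xFAD libraries, mean distances were 7.57 and 12.8 in 5xFAD;Cxcr6-/- and 12.7 and 6.04 in 5xFAD libraries. Pairs between such clonotypes stood at 15.3, 13.7, 14.8 and 14 in the same order, above the value within clonotypes in 4 of 4 libraries. Those of the second 5xFAD;Cxcr6-/- and the first 5xFAD library lay close to the values between clonotypes.

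Most dual-alpha clonotypes were seen once. A single dual-alpha cell made up 301 of 346 clonotypes, and the other 45 held 135 of the 436 cells. The share of dual-alpha cells in an expanded clonotype, one with 2 or more cells counting its 1-alpha cells, was 36.9% and 25.9% in 5xFAD;Cxcr6-/- libraries, against 26.1% and 52.7% in 5xFAD libraries. The second 5xFAD library was highest, and the genotypes overlapped: means were 31.4 ± 7.81% in 5xFAD;Cxcr6-/- and 39.4 ± 18.8% in 5xFAD libraries (SD, n = 2 each; exact two-sided permutation test, p = 0.667). With every library thinned to the 567 cells of the smallest, the shares were 36.9% and 17.2% in 5xFAD;Cxcr6-/- and 15.9% and 32.8% in 5xFAD libraries, and the difference changed sign to 2.72 percentage points.

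Set against 1-alpha cells of the same library, dual-alpha cells were more often expanded in 2 libraries and less often in the other 2. The 1-alpha shares were 28.1%, 28.4%, 46.2% and 49.4% in 5xFAD;Cxcr6-/- libraries 1 and 2 and 5xFAD libraries 1 and 2. The difference averaged -2.65 ± 12.6 percentage points (SD, n = 4 libraries; exact two-sided sign-flip permutation test, p = 0.875) and was negative in 2 of 4 libraries. With libraries thinned to equal size dual-alpha cells were less often expanded in 3 of 4 libraries, at 36.9%, 17.2%, 15.9% and 32.8% against 28.1%, 23.1%, 39.2% and 37.0% of 1-alpha cells, a mean difference of -6.15 percentage points. It was -7.06 for clonotypes of 3 or more cells. Without the clonotype with the most dual-alpha cells of each library it was -7.57. That clonotype is expanded in every library, so leaving it out lowers the dual-alpha share by construction. The mean difference was 3.2 percentage points without the first 5xFAD library, in which a single 1-alpha clonotype with TRBV16 held 189 cells. Without the largest clonotype of each library, that library stood at 26.1% of dual-alpha against 37.9% of 1-alpha cells, and the first 5xFAD;Cxcr6-/- library at 25.5% against 27.9%.

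**Figure D5:**
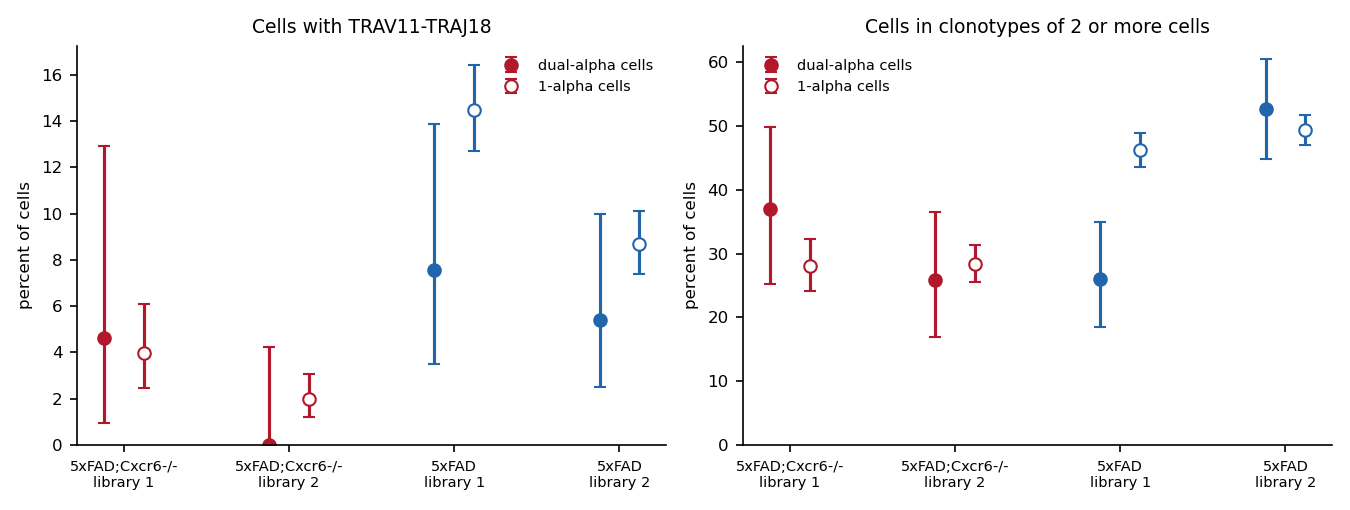
Percent of dual-alpha cells (filled) and 1-alpha cells (open) with a TRAV11-TRAJ18 chain (left) and in clonotypes of 2 or more cells (right) in each library, with exact 95% binomial intervals. The first 5xFAD library shows the widest gaps, 7.56% against 14.5% on the left and 26.1% against 46.2% on the right.

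In the clonotypes with the most dual-alpha cells both chains recurred from cell to cell, which is what they were picked for. Not every expanded clonotype was like this: one with TRBV14 in the first 5xFAD library had both alphas in 1 of 6 cells. The largest dual-alpha clonotype, in the first 5xFAD;Cxcr6-/- library, had both TRAJ22 alphas shown above in 10 of its 11 cells. TRAV2-TRAJ22 had 3 to 8 UMIs per cell (median 4.5) and TRAV13N-1-TRAJ22 had 2 to 8 (median 4), and the summed UMIs were 47 and 46. The TRAV2 chain led in 4 of the 10 cells. A further cell of that library carried the same pair and the same TRB CDR3 under a separate clonotype identifier. Its TRB V segment was called TRBV13-2 and that of the others TRBV12-2+TRBV13-2.

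In the second 5xFAD;Cxcr6-/- library the most frequent dual-alpha clonotypes had 3 dual-alpha cells each. One, with TRBV3, joined TRAV21-DV12-TRAJ21 (20 UMIs in all) to TRAV7-1-TRAJ22 (14 UMIs), which are adjacent J segments. The other, with TRBV19, joined TRAV12D-3-TRAJ15 to TRAV6N-7-TRAJ13. The TRAJ49 and TRAJ2 pair printed above, 47 segment numbers apart and the widest in any library, was in a clonotype of 2 cells with TRBV31, both of which carried both chains.

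In the first 5xFAD library the clonotype with the most dual-alpha cells used TRBV12-1 and had both alphas in 6 of its 10 cells, TRAV6N-7-TRAJ7 with 2 to 9 UMIs (median 5.5) and TRAV12D-2-TRAJ27 with 3 to 5 (median 4). Of its remaining cells, 3 had the TRAJ7 chain alone and 1 the TRAJ27 chain alone. The next, with TRBV16, joined TRAV14D-1-TRAJ37 to TRAV12D-2-TRAJ26 in 4 of 4 cells. In the second 5xFAD library 3 clonotypes had 7 dual-alpha cells each. With TRBV10, TRAV7-6-TRAJ49 (34 UMIs) stood beside TRAV5-4-TRAJ48 (23 UMIs) in 7 of 9 cells. With TRBV12-2, TRAV7D-2-TRAJ23 (37 UMIs) stood beside TRAV7D-5-TRAJ39 (24 UMIs) in 7 of 8 cells. With TRBV13-3, TRAV7-5-TRAJ12 (32 UMIs) stood beside TRAV12D-2-TRAJ12 (28 UMIs) in 7 of 7 cells. Some clonotypes named by the same rule in the other libraries had only 2 or 3 dual-alpha cells, where ties were broken by clonotype identifier.

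Taken over all dual-alpha clonotypes with 2 or more cells, 2 alphas were detected in 24 of 29, 22 of 35, 31 of 51 and 88 of 128 cells, in all 165 of 243 (67.9%). Each of these clonotypes was picked because it holds at least 1 dual-alpha cell. That raises the share, so it is not a rate at which a second alpha is detected. The other 78 cells had 1 alpha, which was the clonotype's leading alpha in 45 and its lesser alpha in 33. None of the 78 had an alpha outside the pair, but the clonotype identifier is itself given from the receptor chains. That absence is therefore no independent observation. In 1 clonotype the pair was not the same in every dual-alpha cell: its 2 cells, in the second 5xFAD library, shared TRAV9-2-TRAJ26 and the TRB, beside TRAV11-TRAJ18 in one and TRAV14D-1-TRAJ26 in the other. These 78 cells count among the 1-alpha cells, as members of 48 clonotypes that also hold a dual-alpha cell. In 13 of 17 clonotypes with 3 or more dual-alpha cells, each alpha had more UMIs than the other in at least 1 cell.

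The pairs were private to a library. None of 345 distinct alpha pairs was seen in 2 libraries. A non-invariant alpha that also occurred with another TRB CDR3 in the same library was found in 2 of 49 and 4 of 77 clonotypes in 5xFAD;Cxcr6-/- libraries, against 8 of 104 and 12 of 116 in 5xFAD libraries. One whole pair, TRAV12-2-TRAJ22 with TRAV13-2-TRAJ31 in the second 5xFAD library, occurred with TRBV17 and with TRBV19. Without the clonotypes that share an alpha in this way, with the TRB compared by V, J and CDR3, mean TRAJ distances were 9.51, 8.25, 9.46 and 7.41 within clonotypes, against 15.1, 14.9, 15.5 and 14.5 between them.

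The invariant alpha of iNKT cells was carried by 21 dual-alpha cells. They were 3 of 65 (4.62%) and 0 of 85 dual-alpha cells in 5xFAD;Cxcr6-/- libraries, where 0 of 85 allows a share of up to 3.53%, against 9 of 119 (7.56%) and 9 of 167 (5.39%) in 5xFAD libraries. Among 1-alpha cells the shares in the same order were 3.98%, 1.98%, 14.5% and 8.67%. The invariant chain was thus less frequent in dual-alpha cells in 3 of 4 libraries, with a mean difference of -2.89 ± 3.15 percentage points (SD, n = 4 libraries; exact two-sided sign-flip permutation test, p = 0.25; the smallest possible is 0.125). Without the first 5xFAD library it was -1.54 percentage points. By genotype, dual-alpha cells carried it at 2.31 ± 3.26% in 5xFAD;Cxcr6-/- and 6.48 ± 1.54% in 5xFAD libraries (SD, n = 2 each), and both 5xFAD;Cxcr6-/- libraries lay below both 5xFAD libraries (difference -4.17 percentage points, exact two-sided permutation test, p = 0.333, the smallest possible). With at least 3 UMIs per chain the groups overlapped, at 4.35% and 0% in 5xFAD;Cxcr6-/- libraries and 5.71% and 3.03% in 5xFAD libraries (difference -2.20, exact two-sided permutation test, p = 0.667). The difference was -6.48 without the first and -1.86 without the second 5xFAD;Cxcr6-/- library. Their 1-alpha cells were ordered the same way. Whether the genotype difference is the same in both kinds of cell was tested on clonotype chains only, where the difference of log2 fold changes was 1.02 ± 0.815 for TRAV11 and 0.71 ± 0.657 for TRAJ18 (SE, edgeR adjusted p = 0.962 for either). Seen from the other side, a second productive alpha was found in 3 of 23, 0 of 19, 9 of 213 and 9 of 158 cells with TRAV11-TRAJ18 in 5xFAD;Cxcr6-/- libraries 1 and 2 and 5xFAD libraries 1 and 2. These are 13.0%, 0% (which allows up to 15.8%), 4.23% and 5.70%, against 11.4%, 8.28%, 8.37% and 9.15% of the other cells, higher in the first 5xFAD;Cxcr6-/- library and lower in the remaining 3.

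The invariant chains of these 21 cells used only 4 CDR3 nucleotide sequences, which encode the same CDR3 and differ in the junction. They are printed because the CDR3 they encode recurred in dual-alpha cells of different libraries. The last sequence of the invariant chain in the list was seen in the first 5xFAD library only. Each is followed in the list by an example of the second alpha. Capitals are as above.
TRAV11-TRAJ18, in 10 cells: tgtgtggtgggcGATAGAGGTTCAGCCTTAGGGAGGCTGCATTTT
TRAV12-2-TRAJ31, in 1 of these cells: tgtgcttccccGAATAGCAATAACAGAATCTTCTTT
TRAV11-TRAJ18, in 7 cells: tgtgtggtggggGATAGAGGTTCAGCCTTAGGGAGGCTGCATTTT
TRAV8D-2-TRAJ11, in 2 of these cells: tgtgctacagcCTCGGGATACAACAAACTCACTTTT
TRAV11-TRAJ18, in 2 cells: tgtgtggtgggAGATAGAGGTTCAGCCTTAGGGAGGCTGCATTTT
TRAV7D-5-TRAJ12, in 1 of these cells: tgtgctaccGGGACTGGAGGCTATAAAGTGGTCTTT
TRAV11-TRAJ18, in 2 cells: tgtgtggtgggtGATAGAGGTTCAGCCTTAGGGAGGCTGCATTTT
TRAV13N-3-TRAJ26, in 1 of these cells: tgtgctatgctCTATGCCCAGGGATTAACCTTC
The second alpha of these cells ranged from TRAJ2 to TRAJ49, above 18 in 13 cells and below it in 8, and lay on average 12.1 segment numbers from TRAJ18. The invariant chain had more UMIs than the second alpha, or was placed first by reads at equal UMIs, in 11 of 21 cells. These 11 include cells with equal UMIs, so the invariant chain did not have more UMIs in all of them. The only clonotype with 2 of the 21 cells, in the second 5xFAD library, joined the invariant chain (3 UMIs in either cell) to TRAV8D-2-TRAJ11 (4 UMIs in either cell) with TRBV12-2. TRAJ18 also occurred without TRAV11 in 20 dual-alpha clonotypes, as in a 5xFAD;Cxcr6-/- clonotype of 3 cells with TRAV4D-4-TRAJ18 and TRAV5-4-TRAJ37. The TRAV1-TRAJ33 joint of mucosal-associated invariant T cells was found in 0 of 436 dual-alpha cells, which allows a share of up to 0.688%, and in 0.174% of 1-alpha cells.

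Segment by segment, TRAV11 and TRAJ18 had a lower share of dual-alpha than of 1-alpha chains, which is in part set by the rule. Of 152 V and J segments of both loci with 10 or more clonotype chains, these 2 (1.32%) had an adjusted p under 0.05 in edgeR's quasi-likelihood test with library as a block, and both were lower in dual-alpha chains. TRAV11 (chr14:53519303-53519859) made up 5.10%, 0.649%, 6.25% and 5.17% of dual-alpha chains, against 4.89%, 2.61%, 21.2% and 13.4% of 1-alpha chains. Its log2 fold change was -1.39 ± 0.269 (SE, adjusted p = 4.34e-05) and it was lower in 3 of 4 libraries. TRAJ18 (chr14:54200777-54200842) made up 5.10%, 2.60%, 6.73% and 7.76% of dual-alpha chains, against 7.58%, 4.31%, 23.1% and 14.7% of 1-alpha chains, a log2 fold change of -1.18 ± 0.233 (SE, adjusted p = 4.34e-05), lower in 4 of 4 libraries. A cell with 1 invariant chain and 1 other alpha contributes 2 chains, so that a fold change of this kind would be about -1 on the log2 scale if dual-alpha clonotypes carried the invariant chain as often as 1-alpha clonotypes. The p-values test against 0 and not against that value, so they give no support for a lower carriage of the invariant chain. No segment was called by DESeq2, without the clonotypes with TRAV11-TRAJ18, or without the first 5xFAD library, and with cells in place of clonotypes the 1 segment called was TRAV12D-2. Shares of one locus sum to a whole, so a lower TRAV11 or TRAJ18 raises the others by construction, and in simulated data such shifts led edgeR to call some unchanged segments.

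The most used segments of dual-alpha chains were spread thinly. Beside TRAV11, the V segments with the highest mean share were TRAV7D-2 (3.81 ± 1.35%), TRAV12D-3 (3.28 ± 1.02%), TRAV4D-4 (3.23 ± 1.33%) and TRAV3D-3 (3.16 ± 1.11%; SD, n = 4 libraries). Their shares of 1-alpha chains were 2.51 ± 1.02%, 2.29 ± 0.749%, 1.61 ± 0.394% and 2.87 ± 1.29%. Among J segments TRAJ22 led at 7.50 ± 2.71%, against 5.79 ± 0.270% of 1-alpha chains, followed by TRAJ23 at 5.57 ± 1.16% against 3.73 ± 0.815%, TRAJ18 as given above, TRAJ31 at 4.91 ± 1.96% against 4.13 ± 1.01%, and TRAJ32 at 4.10 ± 2.20% against 2.39 ± 0.663%. None of these others passed the test (edgeR adjusted p between 0.469 and 0.882).

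Of the segments with the smallest unadjusted p, TRAV12D-2 had a log2 fold change of 1.19 ± 0.445 (edgeR adjusted p = 0.283), with 0, 7, 12 and 2 dual-alpha chains in the 4 libraries. TRAV15D-1-DV6D-1 stood at 2.70 ± 1.03 on the same scale from 2, 0, 3 and 2 chains, and TRAV13N-3 at 2.69 ± 1.03 from 1, 0, 3 and 3 chains (edgeR adjusted p = 0.283 for either). All belong to duplicated V groups whose copies are nearly identical, so the split of chains among copies is uncertain. TRAJ56, near the 5′ end of the array, stood at -1.35 ± 0.622 (edgeR adjusted p = 0.469), lower in 4 of 4 libraries. TRAV1 and TRAJ33 stood at 0.68 ± 0.653 and -0.41 ± 0.447 (edgeR adjusted p = 0.882 for either).

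Between genotypes, 0 of 77 segments with 10 or more dual-alpha chains passed the test (0%; edgeR's quasi-likelihood test, 5 segments at an unadjusted p under 0.05; 0 called by DESeq2). With counts this small the edgeR test also missed many simulated 4-fold changes and DESeq2 missed all of them, so 0 calls do not show that the genotypes use segments alike. TRAJ22 had 9.18% and 10.4% of dual-alpha chains in 5xFAD;Cxcr6-/- libraries, against 4.81% and 5.60% in 5xFAD libraries, a log2 fold change of 0.92 ± 0.348 (SE, edgeR adjusted p = 0.639). Its share of 1-alpha chains lay between 5.48% and 6.11% in every library. The 9 dual-alpha TRAJ22 chains of the first 5xFAD;Cxcr6-/- library include 2 clonotypes with the same TRAJ22 pair and the same TRB CDR3. Each of them gave both of its chains to the count, and the share with that pair entered once was not computed. TRAV11 stood at -1.22 ± 0.600 and TRAJ18 at -1.01 ± 0.450 on the log2 scale of 5xFAD;Cxcr6-/- over 5xFAD dual-alpha chains (edgeR adjusted p = 0.639 for either). The difference between genotypes of the dual-alpha against 1-alpha fold change passed the test for 0 of 152 segments (edgeR, 4 at an unadjusted p under 0.05; DESeq2 was not run on it).

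The CDR3 had a median length of 42 nucleotides in dual-alpha chains and 42 in 1-alpha cells in every library.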

How the data were processed

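Receptor sequencing used the 10x Genomics Immune Profiling v2 chemistry, per the labels' protocols. Cell Ranger 6.0 and the build mm10 are named per the submitters' processing notes; the receptor reference is not given in the sources used here. For every contig the deposited tables give a read count and a UMI count, both raw, per the file headers. Reads per UMI were 1069 to 2144. No count was rescaled, and no doublet caller was run.

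Barcodes were classed by their number of productive chains, and clonotypes follow the deposited identifier. The library was the replicate. Library values were compared by exact permutation (genotypes) or exact sign-flip over libraries (dual-alpha against 1-alpha). Chains per segment were tested with edgeR 4.0.16, offset by the chains of the locus, with DESeq2 1.42.0 as an alternative. Both were tested on simulated data whose settings were varied after seeing the simulation's results. With nothing changed neither called a segment. With 4-fold changes edgeR recovered part of them, fewest between genotypes, and called unchanged segments in some runs, less often when the totals used in the simulation replaced the observed ones. DESeq2 recovered fewer, and none between genotypes. Segment positions come from GENCODE on GRCm38 and matched all 88 TRAV and 43 TRAJ names. Named segments are those called, the 5 TRAV and 5 TRAJ with the highest dual-alpha share, the 3 with the smallest p in each direction, and those of the invariant chains. Named clonotypes are the 3 with the most dual-alpha cells per library, plus TRAV11-TRAJ18 clonotypes of 2 or more cells. The printed sequences were selected with all values known, and some alternatives were added after seeing the data. The members and lists were chosen with earlier results of these data known.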

Additional observations from a re-analysis of the deposited data

How the results depend on the processing

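In all 4 libraries the TRAJ distance within clonotypes was below that between clonotypes under all 8 alternatives, with differences from -6.54 to -4.66 (in kb for 1 of them); leaving out 1 library in turn gave -6.40 to -6.00. The genotype difference in TRAJ distance was -0.322 by cells, -0.0660 without TRAV11-TRAJ18 and -0.622 with at least 3 UMIs in each alpha, and -0.628 to 0.747 without 1 library. The genotype difference in the dual-alpha share was -0.472 percentage points by clonotypes and -0.200 to 3.14 without 1 library. For expansion, dual-alpha minus 1-alpha was -6.48 to 3.2 percentage points without 1 library; the genotype difference was 2.72 thinned to equal library size and -21.3 to 5.35 without 1 library. The TRB UMI ratio was 0.0344 (log2) by medians. The number of segments called between dual-alpha and 1-alpha clonotypes was 0 by DESeq2, 1 by cells, 0 without TRAV11-TRAJ18 clonotypes and 0 to 2 without 1 library, against 2; without the second 5xFAD library the 2 were TRAJ18 and TRAV12D-2. The causes were not tested, except that the TRAV11-TRAJ18 calls rest by construction on the clonotypes left out. Among named segments, signs also turned for TRAJ18 (0.546) and TRAV11 (2.98) without TRAV11-TRAJ18 clonotypes, TRAV3D-3 by cells (-0.104), TRAJ22 (-0.0515) and TRAJ31 (-0.0594) with TMM scaling, and TRAJ31 without 1 library (-0.0199 to 0.441). By genotype they turned for TRAV7D-2 by cells (-0.00530), TRAV3D-3 by cells (0.112), and, without 1 library, TRAV12D-3 (-0.808 to 0.134), TRAV3D-3 (-0.715 to 0.389) and TRAV12D-2 (-5.56 to 0.495). Without the largest clonotype of each library, or that with the most dual-alpha cells, the genotype difference in expansion was -13.7 or -12.1 percentage points. Both take out expanded dual-alpha cells by construction, the former in the first 5xFAD;Cxcr6-/- library and the latter in every library. These alternatives, and those on shared barcodes, shared alphas and same TRAJ, were added after seeing the data.

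Libraries share replicate numbers that nothing in the labels ties to a day or litter. Over 77 segments the deviations of same-numbered libraries correlated at r = 0.12 in dual-alpha chains and r = 0.30 in 1-alpha chains, over 2 pairs of libraries only. With a replicate block the genotype differences were 1.47 percentage points in dual-alpha share (exact permutation p = 1), 0.0598 in TRAJ distance, 2.20 points in lesser-alpha UMI share, -7.97 points in expansion and -4.17 points in TRAV11-TRAJ18 share, and 0 segments were called. With 2 libraries a genotype, exact permutation cannot go below p = 0.333, and the dual-alpha counts of 65 to 167 cells a library limit shares of rare chains.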
